A study of Mus musculus with 6 samples.

Results

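The genes described are the 68 members of the tripartite motif (TRIM) family in the mouse annotation, taken as every protein-coding gene with a curated RefSeq transcript and a symbol made of Trim, a number and at most 1 further letter, among 21000 curated protein-coding genes. TRIM proteins share a RING finger, 1 or more B-boxes and a coiled coil, most of them are ubiquitin ligases, and they differ in the domain at the C-terminal end. Many members are induced by interferons and act against viruses or in the sensing of foreign nucleic acids, and 16 of the 68 were listed as interferon-linked on such background knowledge (Trim5, Trim6, Trim12a, Trim12c, Trim14, Trim21, Trim25, Trim26, Trim30a, Trim30b, Trim30c, Trim30d, Trim34a, Trim34b, Trim38 and Trim56). This list was drawn up with earlier results of these data known, so it is not a grouping independent of them. The other 52 include chromatin cofactors, muscle and neuronal proteins and regulators of protein turnover. IFN-γ signals through JAK kinases to transcription factors that act at gamma-activated site (GAS) elements, and induces interferon regulatory factors (IRFs), which bind interferon-stimulated response elements (ISREs).

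H3K27ac, a histone acetylation that marks promoters and enhancers in use, was mapped by ChIPseq in A9 cells, metastatic clones of TC1, a mouse lung line transformed with viral oncogenes and activated H-ras, so every treatment shares a single transformed line. Cells were cultured for 48 h with 1% DMSO (the vehicle), with curcuphenol (0.00167 µmol), a phenolic compound of plants and marine sponges, or with IFN-γ, both dissolved in the same vehicle. Antibody-captured and input DNA were sequenced as 1 library each per treatment, and the data are 3 lists of regions that the authors called with the matching input as control. The lists held 47899 regions under DMSO, 48763 under curcuphenol and 55622 under IFN-γ, which covered 69.8, 70.3 and 81.1 Mb. They give positions only, without a read count, so the depth of the libraries is unknown and a gene without a region is one where none was called. Because each treatment has a single library, nothing was replicated or tested, and every difference below compares libraries. In a bulk library, fewer cells with the mark and less of the mark per cell cannot be told apart.

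The lists of marker genes were checked against the label. Of 6 mesenchymal markers, 5, 4 and 4 had a promoter region (DMSO, curcuphenol, IFN-γ), beside 50.2%, 49.1% and 51.1% of all protein-coding genes. With so few markers, these counts do not settle the cell type. Although A9 cells come from lung, the epithelial markers Epcam, Krt18, Nkx2-1 and Sftpc had no region in any list, while Krt8 had a promoter region under DMSO and IFN-γ alone and Cdh1 had regions inside the gene alone. The leukocyte markers Ptprc, Cd3e and Adgre1 had no region, and Cd68 had a promoter region in every list. None of the 4 endothelial markers had a promoter region, and 3 of them had regions inside the gene. In the same order of treatments, summed bp were 51942, 32481 and 41725 over the mesenchymal, 4924, 5711 and 8180 over the epithelial, 5964, 9938 and 8887 over the endothelial and 3743, 2958 and 3460 over the leukocyte markers. The part of cell state in the differences below was not tested.

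Sequence at the start sites of interferon-linked members is shown first, because at most of those shown a region described below lies over it. Promoters of 300 bases (250 before the transcription start site, TSS, and 50 from it on) were given by the RefSeq table of GRCm38.p6 (the mm10 assembly) for 53 of the 68 members. The ISRE core was searched as GAAANNGAA and the GAS element as TTCNNNGAA, on both strands. The stretches below run 5′ to 3′ on the strand of the gene from 80 bases before the TSS to 30 bases from it on, with matches to the ISRE core, in either orientation, in capitals. Trim21 encodes a cytosolic antibody receptor, Trim25 a ubiquitin ligase that acts on the RNA sensor RIG-I, and Trim34a, Trim5, Trim12a, Trim12c, Trim30a and Trim30d belong to a cluster of antiviral genes on chromosome 7. Trim30b and Trim30c, of the same cluster, are shown because they hold no match.
Trim21: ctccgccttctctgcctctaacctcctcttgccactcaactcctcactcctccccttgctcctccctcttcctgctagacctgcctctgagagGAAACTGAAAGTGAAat
Trim34a: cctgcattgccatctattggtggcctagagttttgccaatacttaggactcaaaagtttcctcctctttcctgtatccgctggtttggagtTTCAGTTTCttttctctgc
Trim5: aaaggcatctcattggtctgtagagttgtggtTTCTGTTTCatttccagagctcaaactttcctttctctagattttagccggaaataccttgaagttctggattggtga
Trim12a: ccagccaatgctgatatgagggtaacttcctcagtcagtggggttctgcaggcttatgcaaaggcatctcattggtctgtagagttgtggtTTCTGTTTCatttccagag
Trim12c: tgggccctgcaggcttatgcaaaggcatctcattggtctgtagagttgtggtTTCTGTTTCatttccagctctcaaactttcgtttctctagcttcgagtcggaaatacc
Trim30a: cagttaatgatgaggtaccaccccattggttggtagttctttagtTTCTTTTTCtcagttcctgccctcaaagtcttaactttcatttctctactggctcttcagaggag
Trim30d: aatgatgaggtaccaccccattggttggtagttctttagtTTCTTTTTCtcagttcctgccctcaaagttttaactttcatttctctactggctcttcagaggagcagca
Trim25: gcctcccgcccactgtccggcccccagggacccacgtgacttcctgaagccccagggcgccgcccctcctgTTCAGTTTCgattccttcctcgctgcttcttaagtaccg
Trim30b: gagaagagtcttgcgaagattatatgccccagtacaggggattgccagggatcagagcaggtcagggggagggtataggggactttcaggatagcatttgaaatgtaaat
Trim30c: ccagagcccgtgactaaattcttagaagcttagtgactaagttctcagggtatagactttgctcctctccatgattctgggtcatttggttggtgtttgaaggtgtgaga

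In order, these stretches lie at chr7:102565453-102565562, chr7:104244377-104244486, chr7:104288077-104288186, chr7:104315466-104315575, chr7:104353320-104353429, chr7:104465164-104465273, chr7:104507820-104507929, chr11:88999323-88999432, chr7:104358617-104358726 and chr7:104400749-104400858. Trim34a and Trim25 are on the plus strand and the others on the minus strand. Trim21 holds 2 overlapping matches, which start 14 and 20 bases into the transcript. The match of Trim34a and of Trim12a starts 12 bases into the transcript, and that of Trim5, Trim12c, Trim30a, Trim30d and Trim25 lies before the TSS. Trim5, Trim12a and Trim12c carry the same letters, TTCTGTTTC, and their 300-base promoters were 81.7% identical between Trim5 and Trim12c and 69.7% between Trim12a and Trim12c. Trim30a and Trim30d carry TTCTTTTTC, and their promoters were 90.7% identical. Reads from such near-identical copies can be hard to place, so the division of regions between Trim30a and Trim30d is uncertain.

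Among the interferon-linked members, 10 of the 15 with a promoter in the table (66.7%) held the ISRE core, against 2 of 38 other members (5.26%, Trim2 and Trim7), 9.22% of all protein-coding genes in the table and 8.56% of all 32851 promoters in it. Of the 10, Trim34a, Trim34b, Trim5, Trim12a, Trim12c, Trim30a and Trim30d lie in the chromosome 7 cluster. Some of these have closely similar promoters, so they are not independent examples. Of the 9 interferon-linked members with a promoter region in all 3 H3K27ac lists, 8 held it, and Trim56 was the exception. Trim34b held a match that starts at position −211 against its TSS but had no region in any list. The GAS element was found in 6 of 53 members (11.3%), of which 2 were interferon-linked (Trim30c and Trim38), beside 9.04% of all protein-coding genes and 8.3% of all promoters. No member promoter held both. The match of Trim30c, TTCTTAGAA, lay inside a called region with IFN-γ and outside any with DMSO or curcuphenol.

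Promoters of interferon-linked members were also poor in CpG. The median ratio of observed to expected CpG was 0.14 in the 15 interferon-linked members and 0.51 in the 38 other members, beside 0.60 in all protein-coding genes. Among genes with a promoter region in all 3 lists it was 0.17 for the interferon-linked, 0.72 for the other members and 0.80 for all protein-coding genes. Protein-coding genes without a promoter region in any list had a median of 0.25. Trim26 (0.67) and Trim25 (0.62) were the interferon-linked members with the most CpG.

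**Figure D1:**
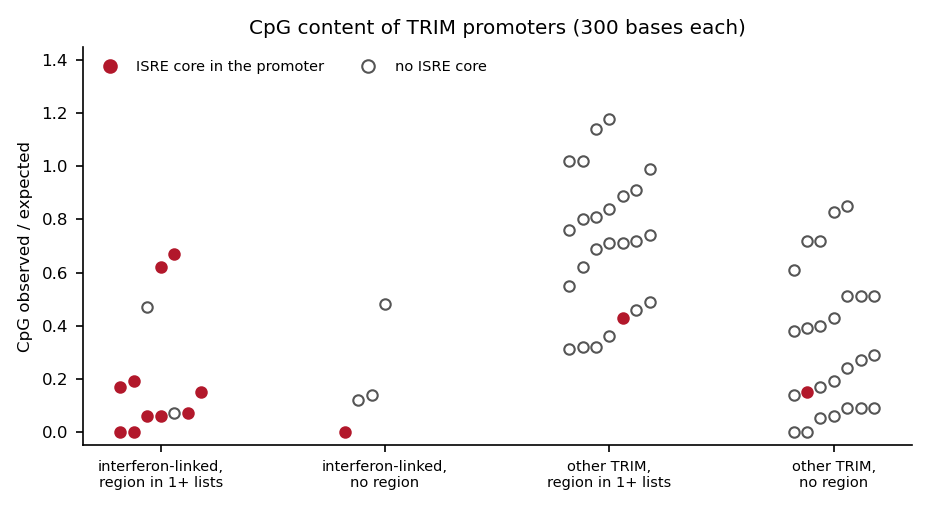
Ratio of observed to expected CpG (vertical axis) in each of the 67 TRIM promoters of the table, by interferon link and by whether a region of any list lies from 1000 bp before to 100 bp after that TSS, with filled points for promoters that hold the ISRE core. Of 12 interferon-linked promoters with a region, 10 are filled and their median is 0.11, whereas 1 of 25 other promoters with a region is filled and their median is 0.72.

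H3K27ac regions lay over the promoters of about as large a share of TRIM genes as of all genes, and nearly the same number of members had one under each treatment. A promoter region was counted where a called region overlaps the sequence from 1000 bp upstream to 100 bp downstream of any curated TSS. With DMSO 36 of 68 members had one, with curcuphenol 35 and with IFN-γ 36, beside 50.2%, 49.1% and 51.1% of all protein-coding genes. In all 3 lists the promoter was marked in 33 members, beside 46.9% of all genes, and 30 members had no promoter region in any list, beside 46.8%. Most of these regions reach beyond the window, and where the centre of the region had to lie in it, 11 members counted under DMSO, 12 under curcuphenol and 14 under IFN-γ. Counting regions anywhere in the gene or the 1000 bp upstream, 46 members had at least 1, a share of 67.6% beside 64.7% of all genes.

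The state of the promoter differed between lists for 5 members. Trim5, Trim30c and Trim68 had a promoter region under DMSO and under IFN-γ but none under curcuphenol, a state found in 2.27% of all genes. The Trim5 region was 2012 bp long with DMSO and 2999 bp with IFN-γ, and no region was called anywhere over the gene with curcuphenol. Trim68 belongs here only by its distance, since its curcuphenol region of 313 bp starts 110 bp downstream of the TSS, just outside the promoter as counted, and its regions with DMSO (417 bp) and IFN-γ (339 bp) start at 60 and 99 bp. Trim80 and Trim36 had a promoter region with curcuphenol alone, as did 1.07% of all genes. That of Trim80, 2883 bp long, lies upstream and ends at −734 bp against the TSS. Trim36, a microtubule-binding ligase, had a region of 633 bp with curcuphenol near its inner start, where those of 331 bp with DMSO and 400 bp with IFN-γ fell short of the promoter as counted.

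The 22 members without a region in any list were Trim6, Trim30b, Trim34b and Trim38 of the interferon-linked members, and Trim9, Trim10, Trim15, Trim17, Trim31, Trim42, Trim43a, Trim43b, Trim50, Trim52, Trim54, Trim58, Trim60, Trim61, Trim63, Trim71, Trim72 and Trim75. Of a list of 16 members known for expression in muscle, neurons, testis, embryo or erythroid cells, 15 had no promoter region in any list, beside 46.8% of all genes, and 4 had a region anywhere, beside 64.7%. These 16 were chosen with earlier results of these data known, so the counts depend on which members were listed. Trim2, known from neurons, and Trim66, known from the testis, were left out and had regions under every treatment. Trim46, which organises microtubules in axons, was the listed member with a promoter region in every list, but that region also holds the TSS of its neighbour Krtcap2, and with curcuphenol and IFN-γ it ends before the TSS of Trim46. Trim63 and Trim54, ligases of striated muscle, Trim72, which repairs muscle membranes, and Trim71, a stem cell protein that binds RNA, had none under any treatment.

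Covered base pairs over the gene body and the 1000 bp upstream were then compared between lists. Where 3 values stand together in what follows, they are for DMSO, curcuphenol and IFN-γ in that order. IFN-γ went with more covered base pairs than DMSO in most TRIM genes, and all 12 interferon-linked members with a region had more. Of 42 members with a region in either list, 33 had more bp with IFN-γ and 9 had fewer, beside 63.2% and 35.9% of all genes. At least 1.5 times more bp were covered in 12 members, beside 21.1% of all genes, and at least 1.5 times fewer in 3 members, beside 8.91%. The median log2 ratio was 0.38 over the 42 members and 0.12 over all genes. Of the interferon-linked members, 6 of 12 had at least 1.5 times more and none fewer (median log2 ratio 0.58), while among the other 30 members with a region 6 had at least 1.5 times more and 3 at least 1.5 times fewer (median 0.17).

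Curcuphenol went with fewer covered base pairs than DMSO in most interferon-linked members. Of 46 members with a region in either list, 17 had more bp with curcuphenol than with DMSO and 29 had fewer, beside 46.7% and 52.6% of all genes. At least 1.5 times more bp were covered in 10 members, beside 21.9% of all genes, and at least 1.5 times fewer in 8, beside 20.8%. None of the 10 was interferon-linked, whereas 6 of the 8 were. Those 6 lie in 1 gene cluster on chromosome 7, without which 2 members had at least 1.5 times fewer bp with curcuphenol. Of the 12 interferon-linked members, 10 had fewer bp with curcuphenol, and the median log2 ratio was −0.50 over the 10 with a region in both lists, against −0.13 over 30 other members and −0.06 over all genes. Both comparisons use the same DMSO list. In the comparison of curcuphenol with IFN-γ, which does not use it, all 12 interferon-linked members had fewer bp with curcuphenol and 10 of them at least 1.5 times fewer (median log2 ratio −1.45). All 12 had more bp with IFN-γ than with DMSO. For the 10 with fewer bp with curcuphenol than with DMSO, this direction therefore follows from the other comparisons. Only Trim14 and Trim26 could have differed, so it is not separate support. Over all 46 members, 14 had more and 32 fewer bp with curcuphenol than with IFN-γ, beside 37.9% and 61.3% of all genes, and 7 had at least 1.5 times more and 17 at least 1.5 times fewer, beside 17% and 26.2%. Of the 34 other members, 14 had more and 20 fewer (median log2 ratio −0.17), with 7 at least 1.5 times more and 7 at least 1.5 times fewer.

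**Figure D2:**
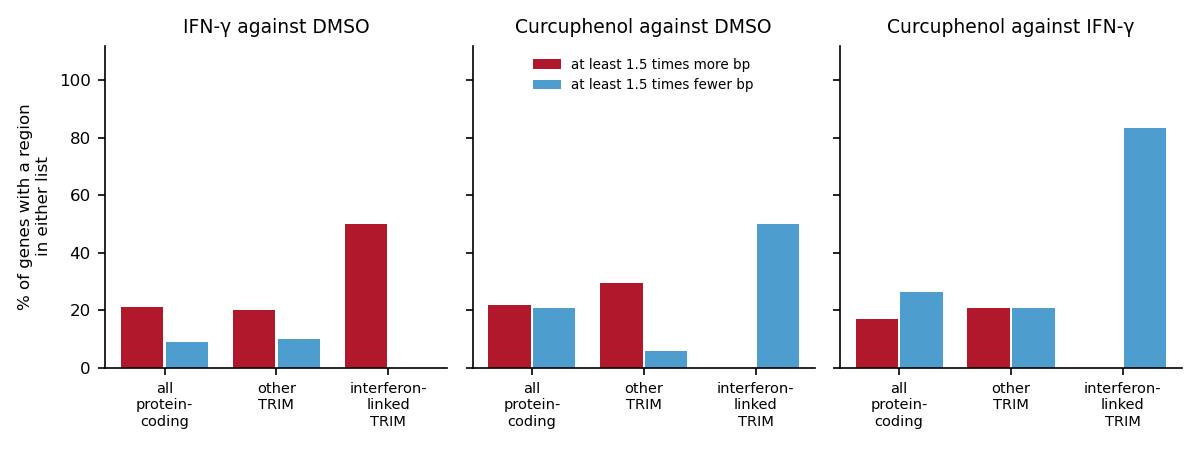
Percent of genes with at least 1.5 times more or fewer covered bp (vertical axis), among genes with a region in either list, for all protein-coding genes, the other TRIM genes and the interferon-linked TRIM genes, in each of 3 comparisons of lists. In interferon-linked TRIM genes 50% had more with IFN-γ than DMSO, 50% had fewer with curcuphenol than DMSO and 83.3% had fewer with curcuphenol than IFN-γ, with no gene in the opposite class. The comparisons share lists and are not independent of each other.

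Summed over the 16 interferon-linked members, regions covered 30321 bp under DMSO, 19158 under curcuphenol and 44888 under IFN-γ. These are 1.48 times as many bp with IFN-γ and 0.632 times as many with curcuphenol as with DMSO, beside 1.15 and 0.975 times over all genes. The fall with curcuphenol was not limited to interferon-linked members. The mesenchymal markers had 0.625 times the bp of DMSO with curcuphenol and the leukocyte markers 0.79 times. The epithelial and endothelial markers had 1.16 and 1.67 times. The other 52 members summed to 90337, 95783 and 107483 bp. The curcuphenol regions of the interferon-linked members lay mostly within those of the other lists. Of their curcuphenol bp, 88.4% were also covered with DMSO and 91.3% with IFN-γ, whereas 55.8% of the DMSO bp and 39% of the IFN-γ bp were covered with curcuphenol. Of their DMSO bp, 94.5% were also covered with IFN-γ, and 63.9% of the IFN-γ bp were covered with DMSO. Over all genes, 69.1% of curcuphenol bp were covered with DMSO and 76% with IFN-γ, 67.8% of DMSO bp and 64.4% of IFN-γ bp were covered with curcuphenol, 82.8% of DMSO bp were covered with IFN-γ, and 71.6% of IFN-γ bp with DMSO.

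**Figure D3:**
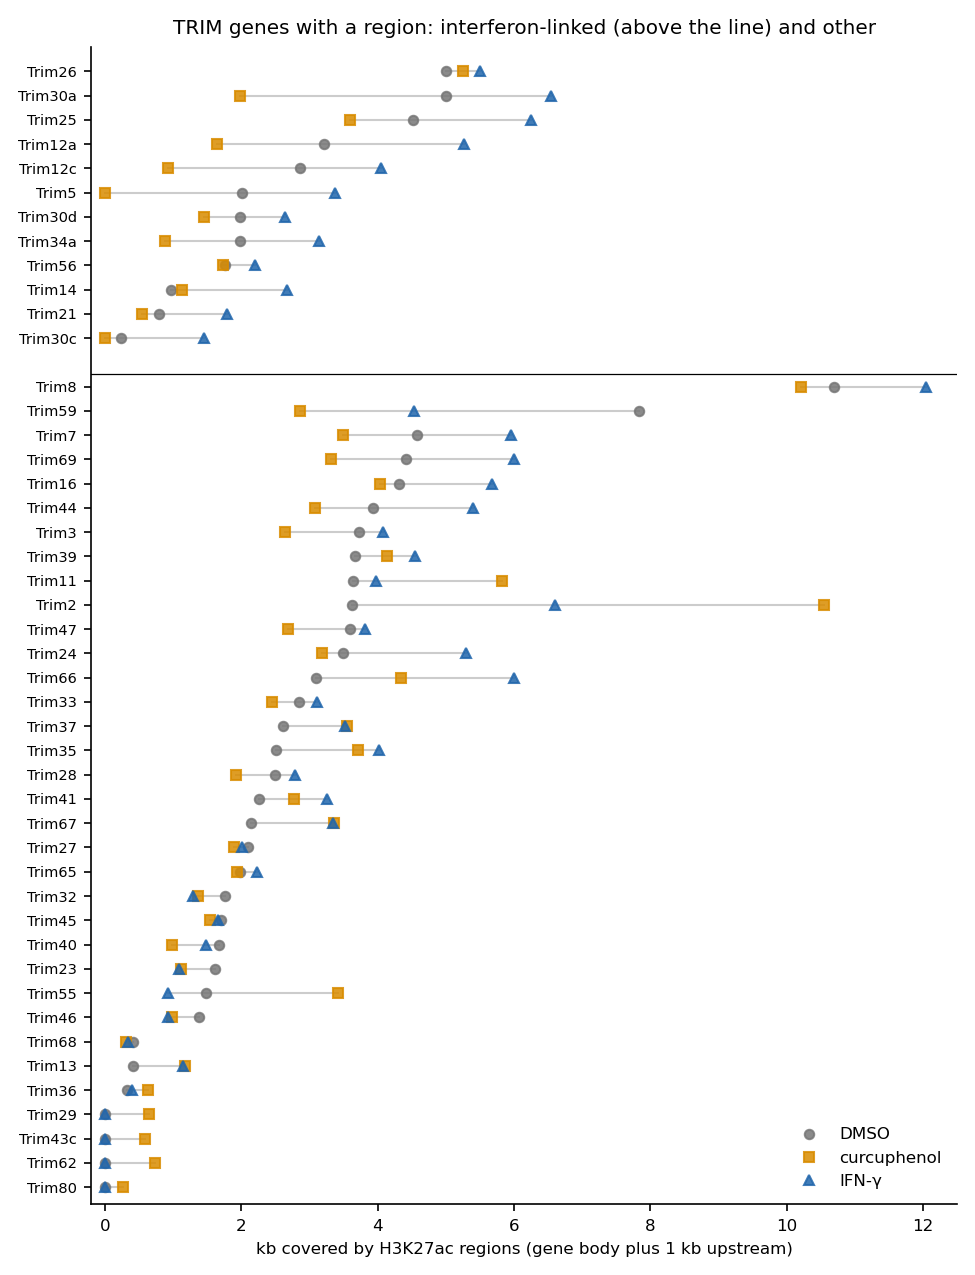
Kilobases covered by H3K27ac regions over the gene body and 1 kb upstream (horizontal axis) for the 46 TRIM genes with a region, with 1 point per treatment and a grey line from the lowest to the highest. In all 12 interferon-linked genes, above the line, IFN-γ is farthest right, whereas among the others the order varies, and Trim2 is widest with curcuphenol and Trim59 with DMSO.

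Most of the interferon-linked difference with curcuphenol lay in the chromosome 7 cluster. Its interferon-linked members summed to 0.399 times the bp of DMSO with curcuphenol, against 0.94 times for those outside it. With IFN-γ the ratios were closer, 1.53 in the cluster and 1.41 outside it. Members whose gene bodies lie within 250 kb of each other formed 8 clusters of 28 genes, and the largest runs over 289 kb at chr7:104218795-104507849 with the 10 genes Trim6, Trim34a, Trim5, Trim12a, Trim34b, Trim12c, Trim30b, Trim30c, Trim30a and Trim30d. No other protein-coding gene of the annotation lies within it. Its genes are relatives of TRIM5, the primate factor that restricts retroviruses. Over the span, regions covered 19656 bp under DMSO, 7530 under curcuphenol and 35384 under IFN-γ, in 13, 8 and 19 regions. This is 1.8 times as many bp with IFN-γ and 0.383 times as many with curcuphenol as with DMSO. Promoter regions were found for 7 of the 10 genes under DMSO, 5 under curcuphenol and 7 under IFN-γ, beside 50.2%, 49.1% and 51.1% of all genes. Each of the 7 genes with a region had more bp with IFN-γ and fewer with curcuphenol than with DMSO. Among all genes, 63.2% had more with IFN-γ and 52.6% fewer with curcuphenol, each direction taken alone. The share of all genes with both directions is not given here. Neighbours within a cluster can share regulatory sequence, so these genes are not independent examples.

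**Figure D4:**
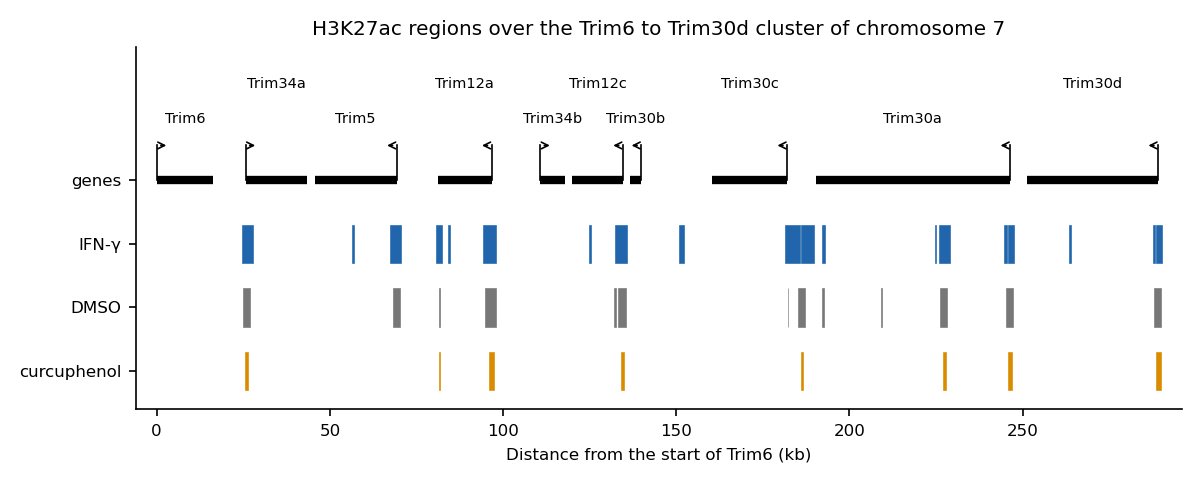
H3K27ac regions of each list (coloured blocks) over the chromosome 7 cluster, by distance in kb from the start of Trim6, with gene bodies as black bars and arrows at the most upstream TSS pointing into the gene. Of the 8 curcuphenol blocks, each lies where the other lists also have a block, and all are shorter than the DMSO block there except that of 317 bp at 81.4 kb, while blocks such as those at 56.4, 151 and 263 kb are present with IFN-γ alone.

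At Trim34a, Trim12a and Trim12c the promoter region was shortest with curcuphenol and longest with IFN-γ. Trim34a had a promoter region of 1976 bp under DMSO, 883 under curcuphenol and 3137 under IFN-γ. Trim12a had one of 3121, 1334 and 3668 bp, in the same order, and Trim12c one of 2546, 926 and 3580 bp. In each of these genes the curcuphenol region kept the sequence at the TSS and was shorter on either side, so that the ISRE core shown above stayed inside the region under every treatment. Trim12c reached 588 bp into the gene with curcuphenol, 1464 bp with DMSO and 2335 bp with IFN-γ.

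Trim30a, which in mice limits NF-κB activation after Toll-like receptor signals, has 2 curated start sites, and each had a promoter region in all 3 lists. At the upstream start the region was 2148 bp long under DMSO, 1126 under curcuphenol and 1774 under IFN-γ, where a further region of 768 bp follows in the first part of the gene. At the inner start, 19 kb into the gene, it was 2296, 859 and 3188 bp long. Over the whole gene Trim30a had 5001 bp under DMSO, 1985 under curcuphenol and 6543 under IFN-γ. Trim30d had 1988, 1454 and 2648 bp, where the log2 ratio of curcuphenol to DMSO was −0.45, and −1.42 when the 1000 bp upstream were left out, with a promoter region of 1700 bp and 2 further regions of 336 and 630 bp with IFN-γ. Trim30c had 229 bp with DMSO, none with curcuphenol and 1453 with IFN-γ, and the IFN-γ region of 4077 bp starts at −3624 bp against the TSS. Trim5 had 2012 bp with DMSO, none with curcuphenol and 3374 bp with IFN-γ, including a second, intronic region of 473 bp. Between members of the cluster, 1 region of 2105 bp was called with DMSO, 1 of 631 bp with curcuphenol, and 2 with IFN-γ that sum to 5265 bp.

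**Figure D5:**
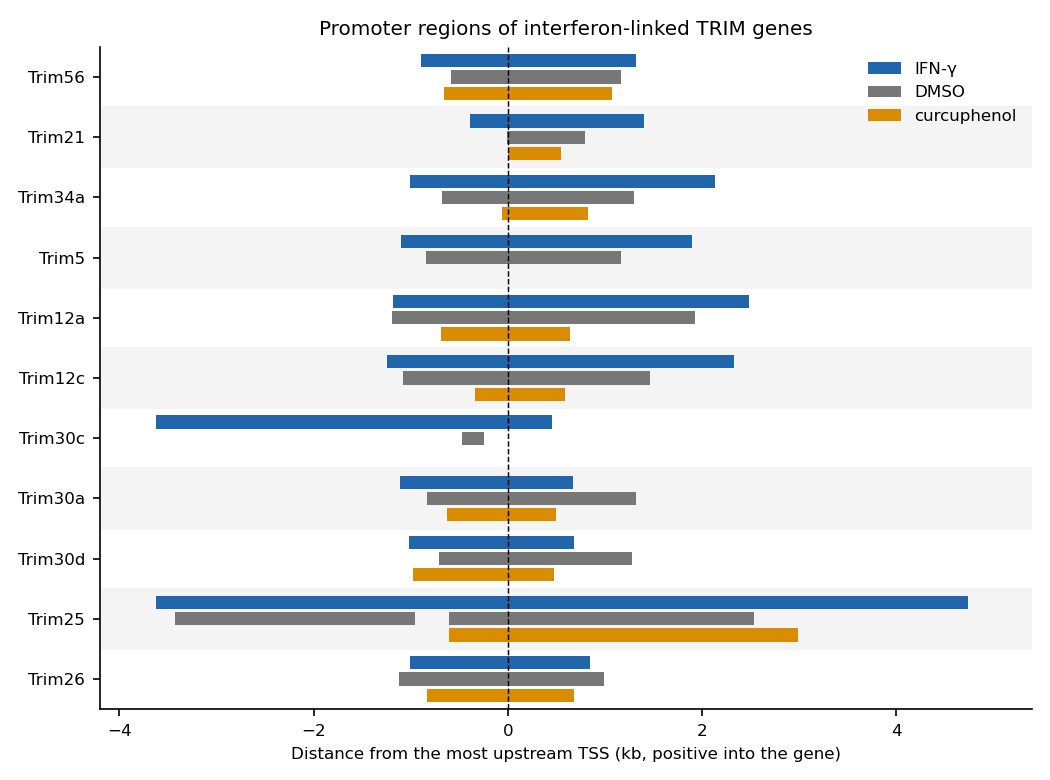
Extent of the promoter regions of the 11 interferon-linked TRIM genes that have one, by treatment, in kb from the most upstream curated TSS (horizontal axis, positive into the gene). For Trim34a, Trim12a and Trim12c the curcuphenol bar lies within the DMSO bar around the TSS, Trim5 and Trim30c have no curcuphenol bar, and the regions of Trim30a at its inner start are not drawn.

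Outside the cluster the 5 interferon-linked members with a region had more covered bp with IFN-γ, and with curcuphenol they had from 0.682 (Trim21) to 1.18 times (Trim14) the bp of DMSO. Trim21 had 1 region, over its promoter, of 799 bp under DMSO, 545 under curcuphenol and 1784 under IFN-γ. Trim25 had 4513, 3599 and 6249 bp over the gene and 1 kb upstream. At Trim25, 4 regions of 2472, 3144, 438 and 881 bp were called with DMSO, a promoter region of 8364 bp and an intronic one of 506 bp with IFN-γ, and a single promoter region of 3599 bp with curcuphenol. The log2 ratio of IFN-γ to DMSO at Trim25 was 0.47, but 0.09 with regions within 1000 bp of each other joined, so most of this difference lay in gaps between DMSO regions. Trim14, an adaptor of RNA sensing at mitochondria, had no promoter region and 967, 1137 and 2667 bp inside the gene, where a region of 1209 bp in an intron 7838 bp from the TSS was called with IFN-γ alone. Trim56, a ligase of antiviral signalling, had 1756, 1729 and 2209 bp. Trim26 had 5005, 5249 and 5506 bp, and its promoter region was 2118, 1508 and 1854 bp long. These 5 genes summed to 13040 bp under DMSO, 12259 under curcuphenol and 18415 under IFN-γ. All 5 had more bp with IFN-γ, 2 of them at least 1.5 times more, beside 63.2% and 21.1% of all genes. With curcuphenol 3 of the 5 had fewer bp than with DMSO and none at least 1.5 times fewer, beside 52.6% and 20.8% of all genes. In the cluster, 6 of the 7 genes with a region had at least 1.5 times fewer. With 5 genes outside it, whether this is particular to the cluster was not tested.

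In the other clusters with regions, bp over the span were 0.976 to 1.75 times those of DMSO with IFN-γ and 0.706 to 1.6 times with curcuphenol. Trim21 and Trim68, in 129 kb of the same chromosome, had 1216, 858 and 2123 bp over their span. On chromosome 17, next to the major histocompatibility complex, Trim26, Trim15, Trim10, Trim40 and Trim31 span 73.1 kb with 6675 bp under DMSO, 7049 under curcuphenol and 7438 under IFN-γ. Trim15, Trim10 and Trim31 had no region there, and Trim40, with 1670, 989 and 1484 bp inside the gene, was the member with at least 1.5 times fewer bp with curcuphenol. On chromosome 11, Trim41 had 2255, 2770 and 3265 bp and its neighbour Trim7, a ligase that binds glycogenin, had 4579, 3493 and 5953 bp. Trim47 had 3594, 2691 and 3810 bp and Trim65 had 1984, 1937 and 2225 bp. Trim11 had 3646, 5824 and 3973 bp, where an intronic region of 2247 bp was called with curcuphenol alone, and Trim17 beside it had none. Trim75, Trim60 and Trim61 on chromosome 8 had no region, nor had Trim43b, and Trim43c had 594 bp with curcuphenol alone. The Trim43 genes, known from the early embryo, are near copies of each other, so this value is uncertain.

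Among the chromatin cofactors with a PHD finger and a bromodomain, all 4 had more covered bp with IFN-γ than with DMSO, beside 63.2% of all genes. Trim24, a coactivator and corepressor of nuclear receptors, had 3495 bp under DMSO, 3181 under curcuphenol and 5304 under IFN-γ. Trim66, known from the testis, had 3098, 4349 and 6002 bp, all inside the gene and none at a promoter. Trim28, the corepressor that silences retroelements, had a promoter region alone, of 2500, 1926 and 2795 bp, and Trim33 had 2847, 2446 and 3106 bp. Trim24 and Trim66 passed 1.5 times with IFN-γ, beside 21.1% of all genes, and none of the 4 passed it with curcuphenol.

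Trim2 and Trim59 had the largest differences from DMSO in bp outside the interferon-linked group. Trim2, a ligase with an NHL domain known from neurons, had 3629 bp in 3 regions with DMSO, 10545 bp in 7 regions with curcuphenol and 6596 bp in 7 with IFN-γ. Its promoter region stayed at 570, 568 and 649 bp, so the added bp lay in introns and at the far end of the gene, where 2 curcuphenol regions of 2522 and 2380 bp start 133436 and 137028 bp from the most upstream TSS. The other NHL members did not share this, with 3726, 2644 and 4080 bp for Trim3 and 1769, 1371 and 1298 bp for Trim32, and Trim71 had no region. Trim59, a membrane-anchored member, had 7841, 2866 and 4535 bp, fewer with both treatments than with DMSO. Its promoter region was longer with both (3326 bp under DMSO, 4625 under curcuphenol and 4442 under IFN-γ), and the bp with DMSO alone lay inside the gene, where an intronic region of 4124 bp was called with DMSO, none with curcuphenol and 1 of 1598 bp with IFN-γ. Trim13, the other membrane-anchored member, of the endoplasmic reticulum, had 412, 1171 and 1144 bp.

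Of the 8 members with a COS box, which binds microtubules, 4 had a region, and 3 of these had at least 1.5 times more bp with curcuphenol than with DMSO, beside 21.9% of all genes. Trim55, a muscle protein, had 1480 bp under DMSO, 3420 under curcuphenol and 920 under IFN-γ, all inside the gene. With IFN-γ, 2 short regions of 460 bp each were called where DMSO had 1 region of 1480 bp, and with regions within 1000 bp of each other joined the log2 ratio of IFN-γ to DMSO was 0.04. Trim67, a neuronal protein, had 2138, 3356 and 3353 bp, all inside the gene, and Trim36 had 331, 633 and 400 bp. Trim46 had 1385, 985 and 922 bp.

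Some members outside any of these lists also passed 1.5 times. Trim35 had 2506 bp under DMSO, 3720 under curcuphenol and 4014 under IFN-γ. Trim62 and Trim29 had regions with curcuphenol alone, of 738 and 642 bp in sum, all inside the gene, and Trim80 had 267 bp within the 1000 bp upstream. Broad promoter regions were found at Trim8, a regulator of cytokine signalling, where 10695, 10208 and 12051 bp were covered and the promoter region of 8437 bp with DMSO and 7364 bp with curcuphenol was a single one of 12593 bp with IFN-γ. The remaining members with regions (Trim16, Trim23, Trim27, Trim37, Trim39, Trim44, Trim45 and Trim69) had promoter regions in all 3 lists, covered between 1090 and 6004 bp, and differed by less than 1.5 times between either treatment and DMSO. A promoter region of Trim23 with DMSO and with IFN-γ also holds the TSS of its neighbours Shld3 and Trappc13.

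Proteins of the TRIM family whose genes carry another symbol were set beside the members. Of Pml, Mid1, Mid2, Bspry and Rnf135, 3 had a promoter region in all 3 lists, beside 46.9% of all genes. Pml, the interferon-inducible organiser of nuclear bodies, had 4042 bp under DMSO, 10230 under curcuphenol and 5933 under IFN-γ. Rnf135, which like Trim25 acts on RIG-I, had 2746, 1504 and 3717 bp. Mid1, which binds microtubules, had 11124, 4284 and 5159 bp. Pml and Rnf135, both of interferon pathways, thus had more bp with IFN-γ, and curcuphenol values on opposite sides of DMSO.

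The genes of IFN-γ signalling showed both of these directions. Of 15 genes, 14 had a region, 12 had more bp with IFN-γ than with DMSO (5 at least 1.5 times more), beside 63.2% and 21.1% of all genes, and 12 had fewer with curcuphenol (7 at least 1.5 times fewer), beside 52.6% and 20.8%. Irf1, which binds the ISRE, had 8085 bp under DMSO, 1486 under curcuphenol and 9361 under IFN-γ, and Irf9, another factor of the ISRE, had 2133, 1247 and 3429 bp. Nlrc5, the activator of MHC class I genes, had 1726, 783 and 7074 bp. Irf8 had no region in any list, and Jak2 was the gene with more bp with curcuphenol (4017, 5590 and 4088 bp).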

How the data were processed

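A9 cells under 3 treatments gave 3 H3K27ac and 3 input libraries. Alignment to mm10 was done by the authors with BWA mem (0.7.17 in the submitters' processing notes, another version in the methods), and MACS2 (2.1.2, paired-end fragments) called regions per treatment with the matching input as control. The deposited lists hold start and end positions in bp and a name. They hold no score, so the length of called regions is described, not the level of acetylation. Filters on duplicates or mapping quality are not given in the sources used here. Narrow calls can split a broad domain. The regions are those of single libraries, so no test, error or p-value could be given.

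Gene models were the curated RefSeq transcripts of GRCm38.p6. The members and gene lists were chosen with earlier results of these data known. A promoter region overlaps by at least 1 bp the window from 1000 bp upstream to 100 bp downstream of any curated TSS. Covered bp were counted over the gene body and 1000 bp upstream, and a gene covered in 1 list alone counts as past 1.5 times. Named with values were the interferon-linked members with a region, members whose promoter state differs between lists, members at least 1.5 times and 500 bp apart from DMSO, and members of clusters, and the others by counts and ranges. Clusters allow gaps of 250 kb. The genes of other lists were named after their values were seen. Promoter sequences and motifs came from the RefSeq table, in which 15 members had no entry and are not analysed here (Trim3, Trim8, Trim11, Trim14, Trim16, Trim17, Trim29, Trim33, Trim35, Trim36, Trim43b, Trim43c, Trim50, Trim55 and Trim65). Identity is 100% minus the edit distance over the 300 bases. Counts were tested on simulated regions over 1000 genes and differed from a base-by-base count in 0. Python 3.11.15 and numpy 2.4.6 were used.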

Additional observations from a re-analysis of the deposited data

How the results depend on the processing

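No paired analysis was possible because each treatment has 1 library. Counts of members were recomputed with other windows, with predicted transcripts, with regions of at least 500 bp, with the same number of widest regions in each list (47899), with regions within 1000 bp joined, with a threshold of 2 times, with other gaps for clusters and, added after the data were examined, without the chromosome 7 cluster. Of 178 such counts, 164 stayed within 1.5 times of the value reported. These include counts of 0 that stayed at 0, and many counts cover the same genes, so the total does not measure how firm the results are. Promoter regions counted by their centre fell to 11 members with DMSO, 12 with curcuphenol, 14 with IFN-γ and 4 in all 3 lists, since long regions have their centre outside the window. With a threshold of 2 times, more bp with IFN-γ than DMSO were found in 4 members (3 of them interferon-linked) and fewer in 0, and fewer with curcuphenol than IFN-γ in 8, beside 10.9%, 4.35% and 14.8% of all genes. Without the chromosome 7 cluster, fewer bp with curcuphenol than DMSO were found in 2 members and than IFN-γ in 10. Of the 5 interferon-linked members left, 5 had more bp with IFN-γ (2 at least 1.5 times) and 3 had fewer with curcuphenol (0 at least 1.5 times). The shares of all genes were 63.2%, 21.1%, 52.6% and 20.8%, in that order. With regions joined, Trim55 turned from fewer to more bp with IFN-γ (log2 ratio 0.04). All 12 interferon-linked members still had more bp with IFN-γ than DMSO. Their log2 ratio fell from 0.47 to 0.09 for Trim25 and from 0.50 to 0.22 for Trim12c. It rose for Trim14, Trim26, Trim30a, Trim30d and Trim56. With 5000 bp upstream, Trim25 had more bp with curcuphenol than DMSO (0.13). Without upstream sequence, Trim30d passed 1.5 times fewer bp with curcuphenol (−1.42). Trim24 was under 1.5 times with IFN-γ with regions of at least 500 bp (0.35) or the same number of widest regions (0.41), as was Trim5 with regions of at least 500 bp (0.53). Trim67 was under it with either treatment with regions joined (0.48), and Trim59 with IFN-γ with 5000 bp upstream (−0.49). Read depth is unknown and limits what a missing region means.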
